A study of Mus musculus with 8 samples.

Results

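The genes described here are the interleukin, tumour necrosis factor (TNF) superfamily and cytokine feedback genes that differed by diet in liver macrophages, with mice on western diet (WD) set against mice on normal diet (ND). They were chosen by symbol alone, as every gene in the authors' list of diet-regulated genes whose symbol begins with Il and a digit, Tnf, Csf, Socs, Ifng or Ifnar. Genes of the interleukin-12 family (Il12a, Il12b, Il27, Il12rb1, Il12rb2 and Il27ra) and Il6st were left out. The choice gave 27 of the 2386 listed genes. In the GENCODE mouse annotation 136 protein-coding genes carry such symbols, so 109 of them were not in the list.

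RNA was sequenced from 4 WD and 4 ND libraries of C57BL/6 mice, a common inbred strain. The labels give neither sex nor age, nor the composition or length of the diets, and how the macrophages were isolated is not given in the sources used here. The library numbers of one diet all precede those of the other, so any order of handling that followed them cannot be told apart from diet. The authors' deposited table holds 1 row per gene for the whole comparison, with no value for a single library, so errors given here are standard errors (SE) computed by the authors, and neither depth nor spread per library is known. The table names its groups WDV and NDV with no word on the V, and here they are assumed to stand for the WD and ND libraries. Every listed gene had an unadjusted p below 0.05 and a log2 fold change beyond 1 in size. A gene absent from it could have failed one limit or gone unmeasured, which cannot be told apart. None of 14 Kupffer cell markers, among them Clec4f, Timd4 and Adgre1, was listed, so the level of the genes that define the labelled cell type could not be checked.

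Interleukins and TNF superfamily ligands carry signals between immune cells, endothelium and the tissue around them. Most interleukin receptors signal through JAK kinases and STAT transcription factors, the IL-1, IL-18 and IL-17 receptors signal towards NF-kB, and TNF receptors either activate NF-kB or start cell death. Such signals are held back at several levels, by soluble binding proteins and receptor antagonists, by decoy receptors that bind a ligand without passing the signal on, and by the SOCS proteins, which are induced by cytokines and then block the receptors' kinases. In the liver, Kupffer cells, recruited monocytes, lymphocytes and sinusoidal endothelium all take part in this exchange.

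These genes moved in both directions under western diet. With the adjusted p of the authors' deposited table below 0.05, 11 of the 27 rose and 14 fell, and Tnfsf8 and Tnfrsf11b did not pass. Over all listed genes 22.0% were called higher and 61.4% lower, against 40.7% and 51.9% of the 27. The p and adjusted p values imply that 17531 genes were tested. Of these, 3.0% were higher and 8.35% were lower beyond 2-fold at that adjusted p, against 8.09% and 10.3% of the 136 annotated genes, of which the number tested is not known. The authors' deposited table gave a median log2 fold change of 1.31 for the 11 higher genes, beside 1.34 for all higher calls, and -1.69 for the 14 lower genes, beside -2.10 for all lower calls. Since a gene had to differ to be listed, these shares describe the list and are no test of the family.

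By name, 13 of 75 annotated interleukin and interleukin receptor genes were listed, 12 of 41 Tnf genes and 2 of 7 Socs genes. These are 17.3%, 29.3% and 28.6%, beside 19.9% of the 136 annotated genes. Over all genes 2386 were listed, 77 of them without an adjusted p, beside 17531 tested. None of 8 Csf genes and none of 5 Ifng, Ifngr and Ifnar genes was listed. The best known inflammatory ligands Il1b, Il6, Tnf, Il10 and Ifng were all outside the table. By role, the authors' deposited table held 5 ligands (2 higher, 2 lower, 1 not passing), 13 receptors (7 higher, 6 lower), 5 antagonists or decoys (2 higher, 2 lower, 1 not passing) and 4 intracellular proteins, all lower. Over all listed genes 61.4% were called lower and 22.0% higher. Only 1 higher gene (Il2ra) and 7 lower genes had a 95% interval wholly beyond 2-fold in the authors' deposited table, which is 3.70% and 25.9% of the 27, beside 4.78% and 39.8% of all listed genes.

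**Figure D1:**
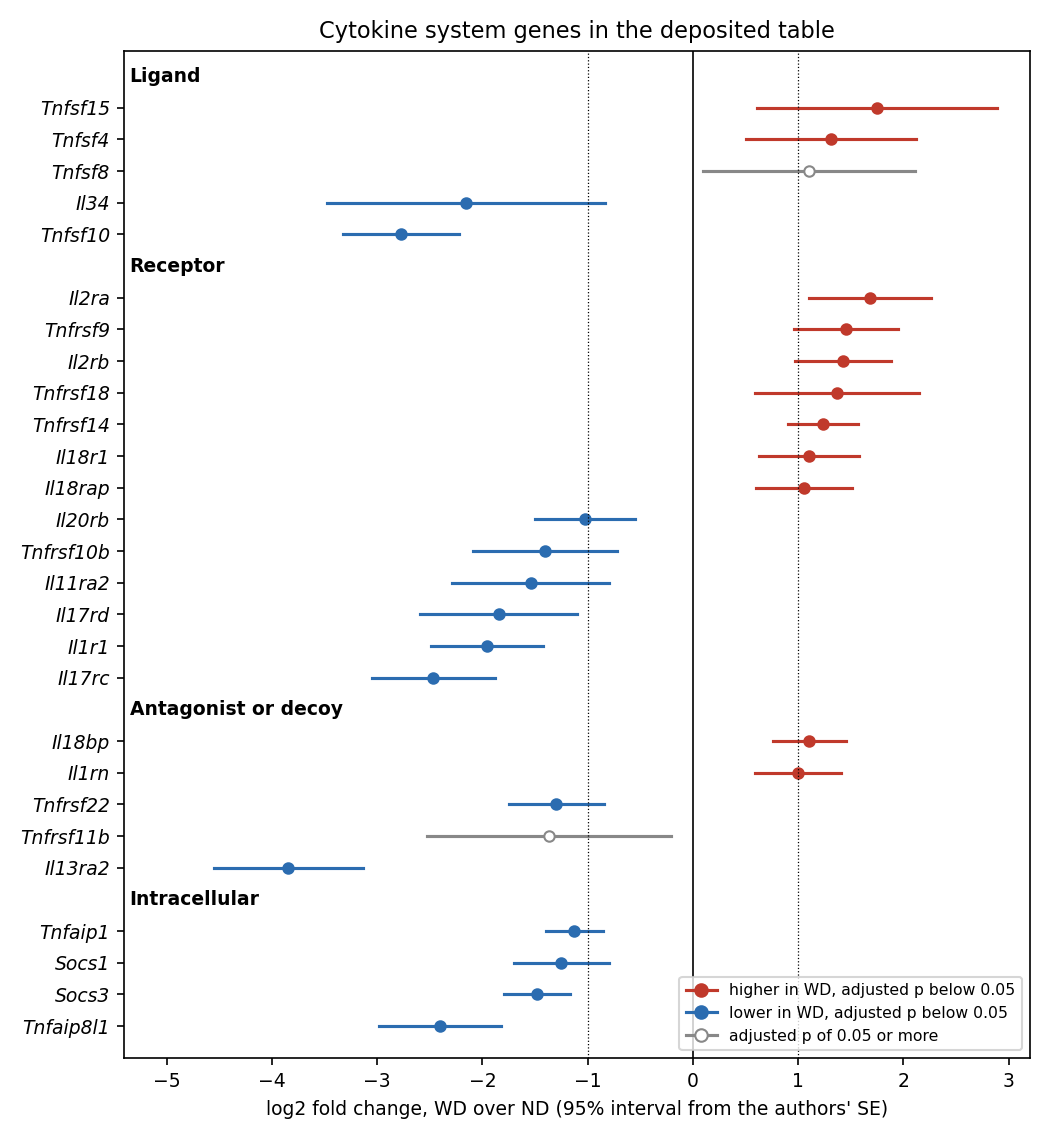
Log2 fold change of the 27 genes, WD over ND (x axis), by role, with points for the authors' estimates and bars for 95% intervals from their SE; dotted lines mark 2-fold. The 4 intracellular genes all lie left of 0, Il13ra2 lies farthest left at -3.84, and the open points Tnfsf8 and Tnfrsf11b did not pass an adjusted p of 0.05.

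The feedback inhibitors Socs1 and Socs3 fell together. Socs3, which blocks signalling of IL-6 type cytokines and of leptin (ENSMUSG00000053113, chromosome 11, 117966079 to 117970047, minus strand, mm10), had a mean normalized count of 3720, the highest of the 27, in the authors' deposited table. The authors' deposited table gave a log2 fold change of -1.48 ± 0.16 (SE), a 2.78-fold fall with a 95% interval from 2.24 to 3.46 (adjusted p 1.21e-18). Per kilobase of exon it was also the most abundant of the 27, at 1287 normalized counts in the authors' deposited table. Socs1, which restrains interferon and IL-2 type signalling (ENSMUSG00000038037, chromosome 16, 10782240 to 10785536, minus strand), stood at a mean count of 89.1 and fell by 1.25 ± 0.23 (log2) in the authors' deposited table (adjusted p 7.99e-07). The other SOCS genes, Socs2, Socs4, Socs5, Socs6 and Socs7, and their relative Cish were not listed, and of 17 genes of cytokine feedback these 2 were the only ones in the table.

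The promoters of Socs3 and Socs1 are shown because each holds a motif of the cytokine pathway that its protein restrains. They are from RefSeq on GRCm38.p6, the assembly that mm10 names. Each runs from 250 bases before to 50 after a start annotated by RefSeq, on the gene's strand. The Socs3 window lies wholly inside the GENCODE bounds of the gene given above, so the GENCODE start lies farther upstream, outside the window. Socs1 has the same start in both annotations. Capitals mark TTCNNNGAA, the STAT motif, in Socs3 (chr11:117969317-117969616, minus strand) and the interferon-stimulated response element, read as GAAA, any 2 bases and GAAA, in Socs1 (chr16:10785487-10785786, minus strand).
Socs3: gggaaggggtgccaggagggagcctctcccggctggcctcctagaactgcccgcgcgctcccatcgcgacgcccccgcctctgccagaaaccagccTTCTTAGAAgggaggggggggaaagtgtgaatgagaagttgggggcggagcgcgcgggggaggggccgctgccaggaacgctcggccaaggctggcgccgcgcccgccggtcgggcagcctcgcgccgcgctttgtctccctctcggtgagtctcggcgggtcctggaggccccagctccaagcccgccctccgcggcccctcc
Socs1: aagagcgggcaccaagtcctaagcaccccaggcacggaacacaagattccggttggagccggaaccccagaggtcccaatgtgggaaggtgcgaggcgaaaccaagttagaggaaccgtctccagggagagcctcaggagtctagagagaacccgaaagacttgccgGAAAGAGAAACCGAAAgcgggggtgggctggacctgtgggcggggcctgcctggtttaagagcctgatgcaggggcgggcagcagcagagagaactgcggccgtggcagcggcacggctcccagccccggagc
The STAT motif of Socs3 lay at -154 to -146 from the RefSeq start. The interferon motif of Socs1 matched at both -83 and -77, where the 2 matches overlap. Among 32851 promoters of this length in the same table, 8.30% held the STAT motif and 3.44% the interferon motif on either strand. A match of letters shows neither binding nor use in these cells.

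Other genes known as STAT3 targets moved the same way as Socs3 where they were listed. Of a list of 14 such genes, Socs3 included, 5 fell, none rose and 9 were absent from the authors' deposited table, with a median log2 fold change of -1.52 beside -1.55 for all listed genes. Over all listed genes 61.4% were called lower and 22.0% higher. This list and the IL-6 family list below were chosen with earlier results known, so a shared direction is no test of STAT3 signalling. Saa3, an acute phase gene, stood at -2.09 ± 0.24 in the authors' deposited table. Cebpd, a transcription factor gene of the acute phase response, had a value of -1.77 ± 0.22 in the authors' deposited table. Hp, the haptoglobin gene, and the kinase gene Pim3 had -1.52 ± 0.28 and -1.13 ± 0.20 in the authors' deposited table. Receptor genes of the IL-6 family, whose cytokines signal through STAT3, were also lower. Lifr, the receptor of leukaemia inhibitory factor, was at -2.75 ± 0.21 and Osmr, the oncostatin M receptor, at -2.31 ± 0.27 in the authors' deposited table. Cntfr was at -3.49 ± 0.36 there. These were 3 of 14 genes of that family list, and the other 11 were not listed. The list does not hold Il11ra2, which also belongs to the family and was lower.

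Il11ra2, a mouse receptor gene for IL-11, was listed at a mean count of 17.9 with a log2 fold change of -1.54 ± 0.38 in the authors' deposited table (adjusted p 0.000394). All 1250 windows of 50 bases in its annotated transcripts also occur in transcripts of Gm13305 or Il11ra1, so reads of these genes cannot be told apart and the value is uncertain. Gm13305 was itself listed at -2.02 ± 0.38 in the authors' deposited table, and Il11ra1 was not listed.

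Among the kinases and transcription factors that carry these signals, genes were listed in both directions. Stat4, a transcription factor gene that acts below IL-12, rose by 1.37 ± 0.21 (log2) in the authors' deposited table. Jak1, used by most interleukin receptors, was at -1.02 ± 0.11 and Jak3, the partner of the common gamma chain, at -1.10 ± 0.10 in the authors' deposited table. Irf1, an interferon-induced transcription factor gene, had -1.03 ± 0.19 in the authors' deposited table and was the only listed gene of 11 in the interferon ligand, receptor and IRF list.

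The IL-18 system was higher on both the receptor and the inhibitor side. IL-18 drives interferon-gamma production by NK and T cells, and its binding protein traps it in solution. Il18bp, the gene of that binding protein (ENSMUSG00000070427, chromosome 7, 102014885 to 102018690, minus strand, mm10), had a mean normalized count of 1826 and rose 2.15-fold (95% interval 1.69 to 2.74) in the authors' deposited table, a log2 fold change of 1.11 ± 0.18 (adjusted p 7.82e-09). Il18r1, the ligand-binding receptor chain, had a mean count of 53.9 and rose by 1.10 ± 0.24 (log2) in the authors' deposited table (adjusted p 4.37e-05). Il18rap, the signalling chain, had a mean count of 350.1 and rose by 1.06 ± 0.23 in the authors' deposited table (adjusted p 4.78e-05). The ligand gene Il18 was not listed. The 3 log2 values lie within 1 SE of each other.

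The promoter of Il18bp is shown beside those of the Socs genes because its product also restrains a cytokine. It is the RefSeq window chr7:102018183-102018482 on the minus strand of GRCm38.p6. This window lies wholly inside the GENCODE bounds of the gene given above, so the stretch before the GENCODE start was not searched. None of 4 motifs searched on both strands, the STAT and interferon motifs above, an NF-kB-like GGG, any 5 bases and CC, and the AP-1 motif TGANTCA, was found in it, so no letters are in capitals.
Il18bp: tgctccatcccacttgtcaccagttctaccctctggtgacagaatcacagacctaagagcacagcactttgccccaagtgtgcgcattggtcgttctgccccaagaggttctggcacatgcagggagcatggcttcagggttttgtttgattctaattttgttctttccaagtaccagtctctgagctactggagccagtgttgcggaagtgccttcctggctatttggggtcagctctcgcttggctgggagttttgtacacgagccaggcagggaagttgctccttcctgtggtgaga
Exons of Il18bp overlap those of Numa1 on the opposite strand by 80 bases, 2.64% of its exon length, and Numa1 was not listed.

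For IL-1, the soluble antagonist and the signalling receptor moved in opposite directions. Il1rn, the IL-1 receptor antagonist gene, had a mean count of 2774 and a log2 fold change of 1.0026 ± 0.21 in the authors' deposited table (adjusted p 1.55e-05), a rise with a 95% interval from 1.51 to 2.66-fold. It is the listed gene of the 27 nearest to the table's limit of 2-fold, followed by Il20rb at -1.02 in the authors' deposited table; values on the other side of that limit are not in the table. Il1r1, the signalling receptor gene (ENSMUSG00000026072), had a mean count of 256.9 and fell 3.89-fold (95% interval 2.69 to 5.62), at -1.96 ± 0.27, in the authors' deposited table (adjusted p 1.26e-11). The ligands Il1a and Il1b, the co-receptor gene Il1rap and the decoy receptor gene Il1r2 were not listed. In all, the authors' deposited table has 4 of 25 genes of the IL-1 and IL-18 family list as higher and 1 as lower, and does not list 20.

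Il1r1, Il18r1 and Il18rap are neighbours in one cluster of receptor genes on chromosome 1. It holds 6 protein-coding genes over 478 kb, from Il1r2 to Il18rap, all transcribed in the same direction. Il1r1 ends 148 kb before Il18r1 begins, and Il18r1 and Il18rap are 14.5 kb apart. The 2 IL-18 receptor genes were higher and Il1r1 was lower in the authors' deposited table, while Il1r2, Il1rl2 and Il1rl1, the IL-33 receptor gene that lies directly before Il18r1, were not listed. The difference between these neighbours was not tested.

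**Figure D2:**
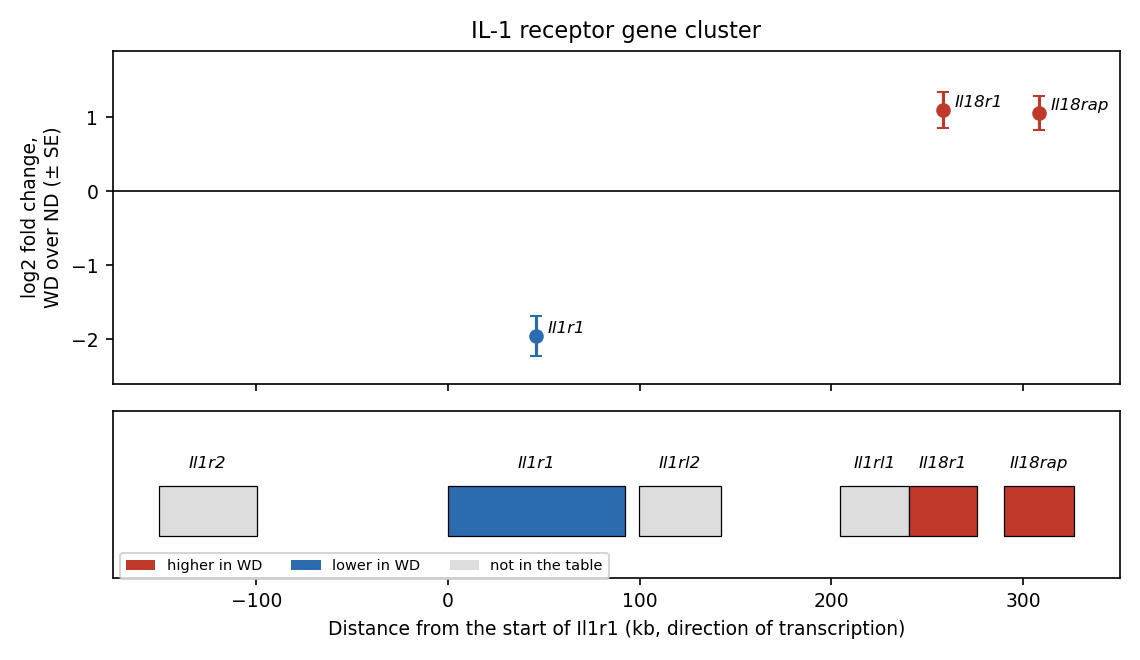
The IL-1 receptor gene cluster: log2 fold change, WD over ND, with the authors' SE as bars (top) and gene positions in kb from the start of Il1r1 (bottom, boxes for whole genes). Il1r1 lies at -1.96, and Il18r1 and Il18rap lie at 1.10 and 1.06; grey genes are not in the table.

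Both the alpha and the beta chain gene of the IL-2 receptor were higher. IL-2 sustains T and NK cells, and its alpha chain gives the receptor high affinity. Il2ra, the alpha chain gene (ENSMUSG00000026770, chromosome 2, 11642807 to 11693193), had a mean count of 47.3 and rose 3.21-fold (95% interval 2.15 to 4.79) in the authors' deposited table, at 1.68 ± 0.29 (adjusted p 1.72e-07). Il2rb, the beta chain gene shared with the IL-15 receptor (ENSMUSG00000068227, chromosome 15, 78479256 to 78495271), had a mean count of 444.1 and rose 2.68-fold, at 1.42 ± 0.23, in the authors' deposited table (adjusted p 1.54e-08). The common gamma chain gene Il2rg, Il7r, Il15 and Il15ra were not listed. Of 19 genes of the common gamma chain family, IL-4 and IL-13 receptors included, the authors' deposited table has these 2 as higher and Il13ra2 as lower, and does not list 16. Per kilobase of exon, Il2rb stood at 104 and Il2ra at 8.29 normalized counts in the authors' deposited table, so the beta chain was the more abundant.

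Co-stimulatory members of the TNF receptor superfamily, which support activated T and NK cells, were higher as well. Tnfrsf14, a receptor for the ligand LIGHT and for BTLA (ENSMUSG00000042333), had a mean count of 183.3 and rose 2.35-fold (95% interval 1.87 to 2.96), at 1.23 ± 0.17, in the authors' deposited table (adjusted p 6.61e-12). Tnfrsf9, also known as 4-1BB, had a mean count of 99.3 and rose by 1.46 ± 0.25 (log2) in the authors' deposited table (adjusted p 1.27e-07). Tnfrsf18, also known as GITR and abundant on regulatory T cells, had a mean count of 27.8 and rose by 1.37 ± 0.40 in the authors' deposited table (adjusted p 0.00333). Of its 50-base transcript windows, 18.7% are shared with the antisense gene Gm16008. Strand use is not given in the sources used here, so reads of that stretch cannot be assigned. The 3 genes lie on chromosome 4 within 5114 kb of each other, and Tnfrsf4, the OX40 gene next to Tnfrsf18, was not listed. Of 25 TNF receptor superfamily genes the authors' deposited table has these 3 as higher, Tnfrsf10b and Eda2r as lower and Tnfrsf11b as not passing, and does not list 19. That list does not hold Tnfrsf22, which was also lower and is described with TRAIL. Eda2r, a receptor for ectodysplasin A2, had -1.11 ± 0.38 in the authors' deposited table.

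The TNF superfamily ligand genes Tnfsf15, Tnfsf4 and Tnfsf8 had wider errors than Tnfrsf14, Tnfrsf9 and Tnfrsf18. They are set beside these receptors by gene family only, and not as their ligands. Per kilobase of exon the authors' deposited table gives 3.71 normalized counts for Tnfsf15, 15.5 for Tnfsf4 and 3.23 for Tnfsf8, all below the 18.2 of Tnfrsf18, the least abundant of the 3 receptors. Tnfsf15, the ligand TL1A, rose by 1.75 ± 0.58 at a mean count of 12.4 in the authors' deposited table (adjusted p 0.0123). Tnfsf4, the OX40 ligand of antigen-presenting cells, rose by 1.31 ± 0.41 at a mean count of 28.5 in the authors' deposited table (adjusted p 0.0074). Tnfsf8, the CD30 ligand and the neighbour of Tnfsf15 on chromosome 4, had a value of 1.11 ± 0.51 at a mean count of 12.3 and did not pass (adjusted p 0.0927, from the authors' deposited table). Fasl, a death-inducing ligand of cytotoxic lymphocytes that the choice by symbol does not cover, had 1.28 ± 0.36 in the authors' deposited table (adjusted p 0.00244). Of 18 TNF superfamily ligands the authors' deposited table has 3 as higher, 1 as lower and 1 that did not pass, and does not list 13. Of 29 genes of TNF adaptors and NF-kB the authors' deposited table has 2 as higher and Tnfaip8l1 as lower, and does not list 26; that list does not hold Tnfaip1, which was also lower. Traf1, an adaptor of TNF receptors, rose by 1.08 ± 0.18 and Tnip3, an inhibitor of NF-kB activation, by 1.21 ± 0.15 in the authors' deposited table.

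Markers of several cell types were also called higher. Of 24 T cell and NK cell markers, the authors' deposited table has 11 as higher and none as lower. It has 2 that did not pass and does not list 11. The median log2 fold change of the listed ones was 1.34 and the highest 1.87. Medians of other listed markers were 3.38 for mast cells and basophils, 1.70 for hepatocytes, 1.60 for monocytes and 1.38 for dendritic cells. They were 1.10 for group 2 innate lymphoid cells and eosinophils and 1.09 for B and plasma cells. Over all listed genes 22.0% were called higher. The marker lists were chosen with earlier results known, so a shared direction within a list is no test. Dendritic cell markers were higher for 5 of 15 and lower for 1, and monocyte markers were higher for 6 of 12, in the authors' deposited table. There too, by the authors' deposited table, 8 of 11 mast cell and basophil markers rose and 1 fell, and 2 of 9 markers of group 2 innate lymphoid cells and eosinophils rose. Hepatocyte markers were higher for 3 of 12 and B and plasma cell markers for 2 of 11, with none lower, in the authors' deposited table. None of the 27 genes is in a marker list, and the part of these cells in the rise of Il2ra, Il2rb, the IL-18 receptor genes and the co-stimulatory genes was not tested. In RNA from a mixed preparation, a change in the number of cells of a type and a change in RNA per cell cannot be told apart.

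The TRAIL ligand gene fell, and so did genes of a death receptor and a decoy receptor for it, which are set side by side here after their values were seen. TRAIL is a TNF superfamily ligand that can kill cells through death receptors. Tnfsf10, the TRAIL gene (ENSMUSG00000039304, chromosome 3, 27317028 to 27342427), had a mean count of 275.0 and fell 6.83-fold (95% interval 4.65 to 10.0), at -2.77 ± 0.28, in the authors' deposited table (adjusted p 5.4e-21). Tnfrsf10b, the mouse death receptor for TRAIL, had a mean count of 30.8 and fell by 1.41 ± 0.35 (log2) in the authors' deposited table (adjusted p 0.00042). Tnfrsf22, a mouse decoy receptor for TRAIL, had a mean count of 61.2 and fell by 1.30 ± 0.23 in the authors' deposited table (adjusted p 2.26e-07). Of the 50-base windows of Tnfrsf22, 27.4% occur in another gene, chiefly its close copy Tnfrsf23, and of those of Tnfrsf10b 6.21% do, so both values carry that uncertainty. Tnfrsf23 itself was not listed. Tnfrsf11b, which encodes osteoprotegerin, a soluble decoy for the bone factor RANKL, had -1.37 ± 0.59 at a mean count of 14.9 and did not pass (adjusted p 0.0655, from the authors' deposited table).

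The largest fall among the 27 was that of Il13ra2, a receptor with high affinity for IL-13 that is widely described as a decoy. Il13ra2 (ENSMUSG00000031289, chromosome X, 147383476 to 147429192, minus strand) had a mean count of 64.4 and fell 14.3-fold (95% interval 8.80 to 23.4), at -3.84 ± 0.36, in the authors' deposited table (adjusted p 8.31e-25). It ranked 87 by size among the 1680 lower genes of the authors' deposited table. Neither Il13 nor the signalling chains Il4ra and Il13ra1 were listed.

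Both listed IL-17 receptor genes were lower. Il17rc, which pairs with Il17ra to bind IL-17A and IL-17F (chromosome 6, 113471427 to 113483140), had a mean count of 43.7 and fell 5.52-fold, at -2.46 ± 0.30, in the authors' deposited table (adjusted p 2.76e-15). Il17rd, also known as Sef and an inhibitor of fibroblast growth factor signalling, had a mean count of 21.2 and fell by 1.85 ± 0.38 (log2) in the authors' deposited table (adjusted p 1.35e-05). Il20rb, a chain of the receptors for IL-19, IL-20 and IL-24, had a mean count of 45.6 and fell by 1.02 ± 0.24 in the authors' deposited table (adjusted p 0.000203). Il17ra and the IL-17 ligands were not listed. Of 24 genes of the IL-10 and IL-17 families the authors' deposited table has 3 as lower and none as higher, and does not list 20. Ifnlr1, a receptor chain for interferon lambda, had 1.23 ± 0.52 there and did not pass (adjusted p 0.0623, from the authors' deposited table).

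Il34, a second ligand of the macrophage growth factor receptor Csf1r, had the lowest mean count of the 27, 11.0, in the authors' deposited table. It fell by 2.16 ± 0.67 on the log2 scale, the widest SE of the group, in the authors' deposited table (adjusted p 0.00686). Csf1 and Csf1r were not listed, nor were the other 12 of 13 genes of the colony-stimulating factor list. Among the intracellular genes, Tnfaip8l1, a relative of the apoptosis regulator Tnfaip8, had a mean count of 75.9 and fell 5.30-fold, at -2.41 ± 0.30, in the authors' deposited table (adjusted p 1.56e-14). Tnfaip1, an adaptor of a ubiquitin ligase, had a mean count of 917.0 and fell by 1.13 ± 0.14, the narrowest SE of the 27, in the authors' deposited table (adjusted p 1.34e-14). The NF-kB inhibitor gene Tnfaip3 was not listed.

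Markers of sinusoidal endothelium were also called lower. All 20 fell in the authors' deposited table, with a median log2 fold change of -3.09 and a range from -4.12 to -1.38. This list was chosen with earlier results known, so its shared direction is no test. Over all listed genes 61.4% were called lower. The endothelial markers had a median mean count of 2481, beside 37.5 for all listed genes, so they were abundant in these macrophage-labelled libraries. Of 12 stellate cell and fibroblast markers the authors' deposited table has 8 as lower, from -2.19 to -1.18, and none as higher, and does not list 4. Of the 14 lower genes of the family, Il13ra2 alone had a log2 fold change below the endothelial median, in the authors' deposited table. Their part in the fall of the receptor, TRAIL and Socs genes was not tested.

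**Figure D3:**
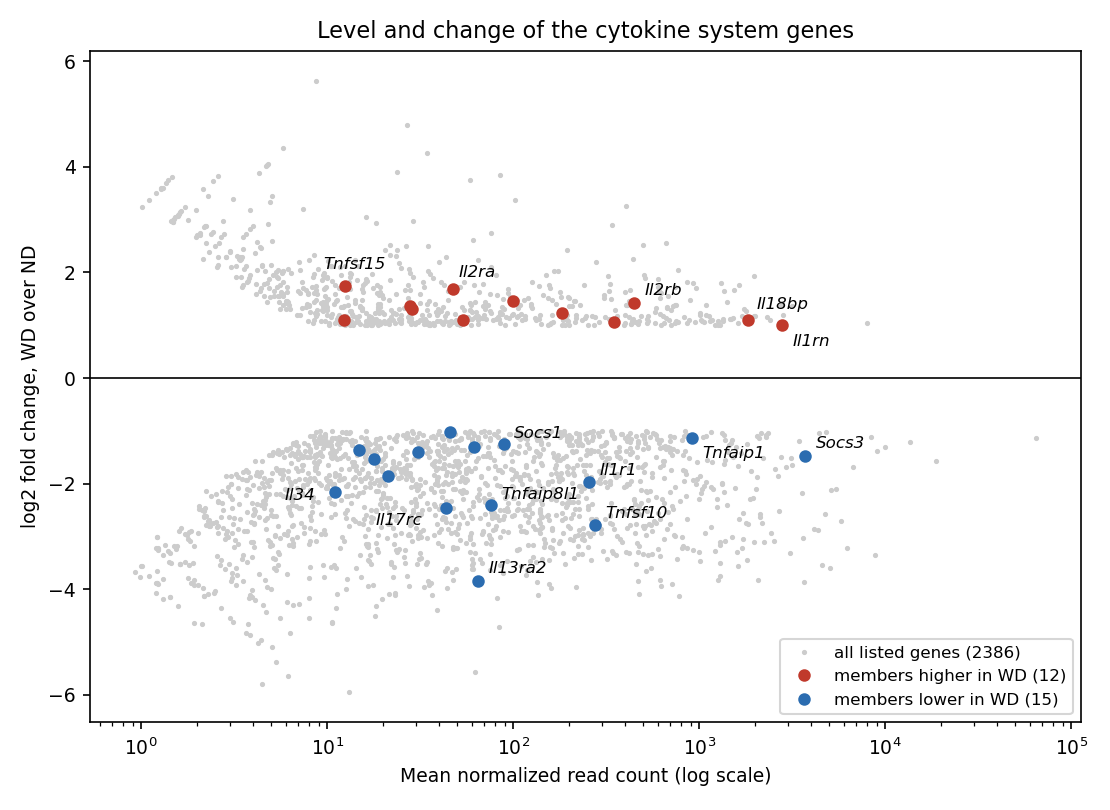
Mean normalized read count (x axis, log scale) against log2 fold change, WD over ND, for all 2386 listed genes (grey) and the 12 genes of the family with a fold change above 0 (red) and 15 below 0 (blue), Tnfsf8 and Tnfrsf11b included, with 14 of the 27 named. The empty band around 0 is the authors' limit of 2-fold. Socs3 at 3720, Il1rn at 2774 and Il18bp at 1826 have the highest mean counts, and Il13ra2 lies lowest.

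**Figure D4:**
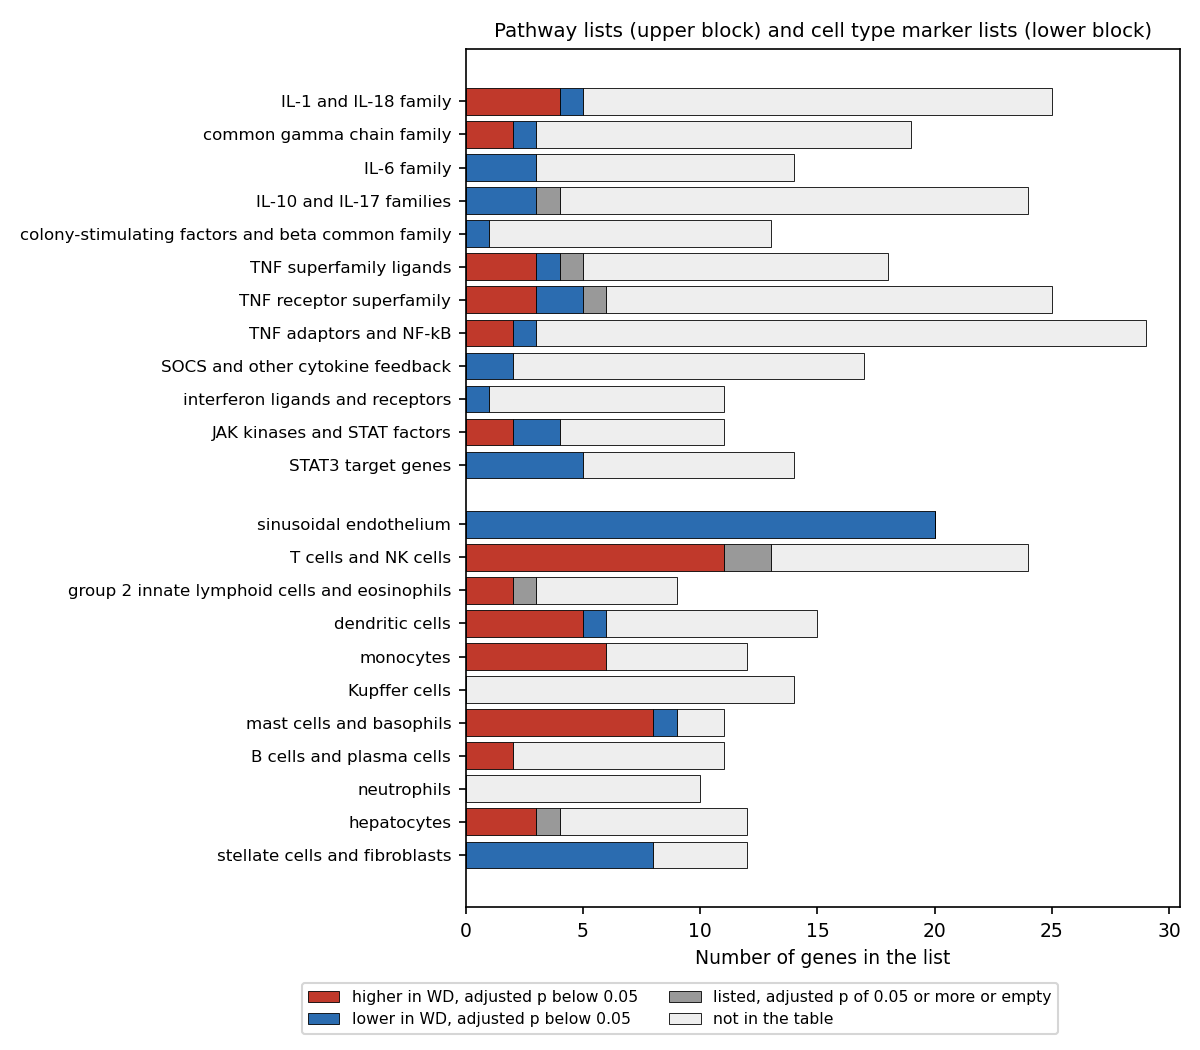
Number of genes in each pathway list (upper block) and marker list (lower block) that were called higher or lower in WD over ND, were listed without passing, or were not in the table. All 20 sinusoidal endothelial markers were lower, 11 of 24 T and NK cell markers were higher, and no Kupffer cell or neutrophil marker was listed.

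The SE of the log2 fold change ran from 0.139 to 0.673 over the 27 genes in the authors' deposited table, with a median of 0.283, beside 0.370 for all listed genes. The authors also tested their higher genes for KEGG terms. The term cytokine-cytokine receptor interaction held 31 genes in the authors' deposited table, and 11 of the 12 genes described here with a fold change above 0 were among them, Tnfsf8, which did not pass an adjusted p of 0.05, included. Il18bp was not among them.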

How the data were processed

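RNA of liver macrophages was sequenced from 4 WD and 4 ND libraries, grouped by their diet label. Per the labels' protocols, polyadenylated RNA was enriched and cDNA was made with random hexamers. The build mm10 and the tools DESeq, edgeR, featureCounts, HISAT2, STAR, STAR-Fusion and StringTie are named in the submitters' processing notes, with no roles. Per the file headers, the columns are those of a DESeq2 result. The deposited signal is the authors' mean normalized read count, over libraries that the file does not number. The log2 fold change deposited by the authors sets WD over ND, and the deposited score columns are its SE and their ratio. The deposited p-value and its adjusted p-value were used as given.

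No model was fitted here. Calls use an adjusted p below 0.05, and 77 genes with an empty adjusted p were not called. Intervals are normal 95% intervals from the authors' SE. The number of tested genes, 17531, is the whole number that makes 91.0% of ranks (p times number over adjusted p) whole within 0.02; this step was tested on simulated data. Coordinates and shared 50-base transcript windows come from GENCODE M21 (GRCm38), read with Python 3.11.15 and pandas 2.3.3. Promoters come from RefSeq for 21 of the 27 genes, and their starts can differ from those of GENCODE, as for Socs3 and Il18bp. Depth per library is unknown. Whether the 4 libraries of a diet are separate mice is implied by the series design and not stated per library; p-values otherwise measure only technical spread. Every gene that the choice by symbol finds is named. Other genes given with values come from the pathway lists where called, except for Ifnlr1 and Gm13305. Ifnlr1 is in a pathway list and did not pass, and Gm13305 is given because it shares transcript windows with Il11ra2. The genes and lists were chosen with earlier results of these data known. One gene of the JAK and STAT list is not reported here.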

Additional observations from a re-analysis of the deposited data

How the results depend on the processing

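Each call was recomputed under other limits. At an adjusted p below 0.01, 24 of the 25 calls were kept and Tnfsf15 was lost, and a mean count of at least 10 kept all 25. Of the 1990 calls over all listed genes, these limits kept 1679 and 1697. At the authors' own limit, an unadjusted p below 0.05, all 27 genes counted, 12 higher and 15 lower. With the 95% interval wholly beyond 2-fold, 8 calls were left, 1 higher and 7 lower, with median log2 fold changes of 1.68 and -2.41; all listed genes then gave 114 higher and 949 lower. The 8 were Il2ra, Il13ra2, Il17rc, Il17rd, Il1r1, Socs3, Tnfaip8l1 and Tnfsf10. Bonferroni adjustment over 17531 genes left 16 calls, 6 higher and 10 lower, and among those lost were Il18r1, Il18rap, Tnfrsf18, Tnfsf4, Il34 and Tnfrsf10b. All listed genes then gave 219 higher and 968 lower. Leaving out the 4 genes with 5% or more of their transcript windows shared, a choice made after seeing the data, left 10 higher and 11 lower. No direction can change under these limits, since the fold changes are the authors'. No paired analysis was possible because the table holds no value for any library, and for the same reason no library could be left out and no other normalization tried.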

Other observations

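Promoters of 21 of the 27 genes, 27 windows in all, were searched for 4 motifs on both strands. The STAT motif TTCNNNGAA was in 4 of the 27 windows (14.8%), beside 8.30% of 32851 windows in the table, and these belonged to Socs3, Il18r1, Tnfrsf9 and Tnfrsf18. Socs3 was lower and the other 3 genes were higher under western diet in the authors' deposited table. The interferon-stimulated response element was in 2 windows (7.41%, beside 3.44%), those of Socs1, which was lower, and Tnfrsf14, which was higher. The AP-1 motif TGANTCA was in 3 windows (11.1%, beside 7.81%), of Il13ra2, Il1rn and Tnfrsf9. The NF-kB-like motif was in 15 windows (55.6%, beside 50.8%). Several genes have more than 1 window, and the search is a description of letters with no test.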
